A study of Mus musculus with 2 samples.

Results

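The genes described here encode the kinetochore, the centromere on which it is built and the spindle checkpoint that reads it: 41 genes, chosen by name for the complex they belong to (CENP, NDC80, MIS12, SKA and checkpoint proteins, with their loading and corona partners). On the array, 40 of the 41 had a probe set annotated with a single gene symbol, 83 probe sets in all out of 45101. Hjurp, which encodes the chaperone that deposits CENP-A, had only probe sets that name several genes and was not analysed here. All 40 had a signal above the floor defined below on at least 1 array, among 12634 such genes in the whole series.

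An Affymetrix mouse expression array measured messenger RNA of BALB/c nude mice, which lack a thymus and are short of mature T cells, in the whole liver. The day 3 sample was taken 3 days after surgical removal of 70% of the liver, and the day 0 sample, which the submitters call the control, at day 0 of the same operation. No age or sex is named in the labels, nor how many animals a sample holds. With 1 array per day, values have no replicate and the days could not be compared by a test. Effects of time, of surgery and of the individual animal cannot be told apart.

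The kinetochore is the protein assembly that ties each chromosome to spindle microtubules in mitosis. Its inner layer sits on nucleosomes that hold the histone H3 variant CENP-A, its outer layer (the KNL1, MIS12 and NDC80 complexes) grips the microtubule, and the checkpoint proteins hold back anaphase until every kinetochore is attached. Many of these genes are transcribed mainly in late G2 and mitosis, so tissue at rest, such as adult liver, makes little of their messenger RNA, while rodent hepatocytes enter division in the days after partial hepatectomy.

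At day 3, 33 of the 40 kinetochore and checkpoint genes exceeded their day 0 signal at least 2-fold, 7 were under 2-fold and none was 2-fold lower. Over all 12634 analysed genes, 12.9% were at least 2-fold higher and 5.62% at least 2-fold lower. The median log2 ratio, day 3 over day 0, was 1.95 over the 40 genes (quartiles 1.25 and 3.01), against 0.08 over all analysed genes. Of the 40, 20 were at least 4-fold higher, beside 3.27% of all genes, and 10 were at least 8-fold higher, beside 1.11%. The 7 genes under 2-fold were Cenpb, Cenpo, Mad1l1, Zwint, Mis12, Cenpl and Zw10. These counts describe the 2 arrays and carry no test, and the list of genes was chosen with earlier results of these data known.

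Signals are MAS5 values on a linear scale. Values under a floor of 68.3 (the day 3 array median, which exceeded that of day 0) were raised to it, and a fold against a floored value can only be a minimum, given below as "at least". At day 0 the brightest probe set lay under the floor for 17 of the 40 genes, with signals of 2.72 to 56.7, all of them also below 63.1, the 95th percentile of 80 probe sets for olfactory and vomeronasal receptors that liver is not known to use. At day 3 these 17 probe sets had signals of 142 to 1468, and none of the 40 lay under the floor. Nsl1 is among the 17, although its other probe set read 147 at day 0. Signals of different probe sets are not on a common scale, so levels are compared only within a probe set. With a 75th percentile floor 11 of 29 genes left were at least 2-fold higher, beside 7.47% of all genes, and 16 of 23, beside 11.8%, when both arrays had to exceed the floor.

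**Figure D1:**
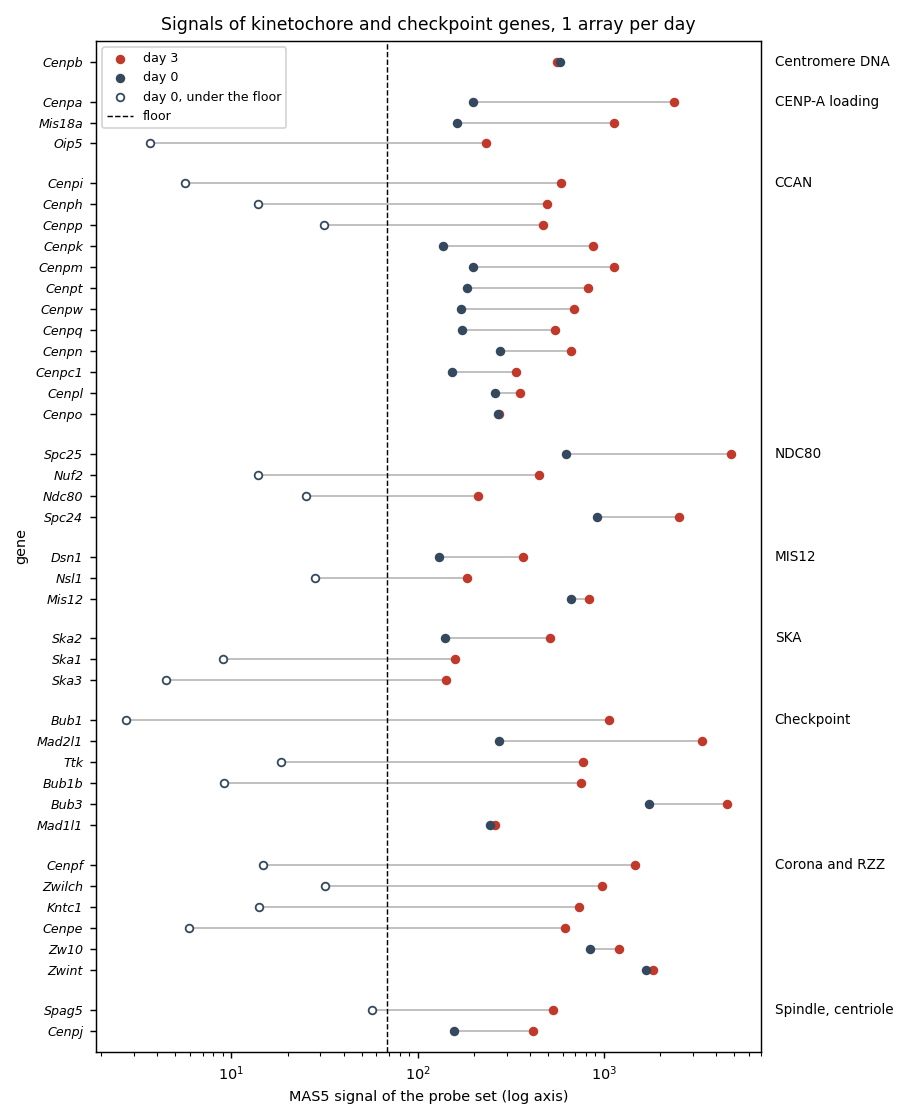
MAS5 signal (log axis) of each gene's brightest probe set on the day 3 array and the day 0 array, ordered by complex, with the floor of 68.3 dashed and day 0 signals under it drawn open. All but Cenpb lie higher at day 3 as deposited, and 17 genes lie under the floor at day 0, so distances between the points are to be read within a row only.

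**Figure D2:**
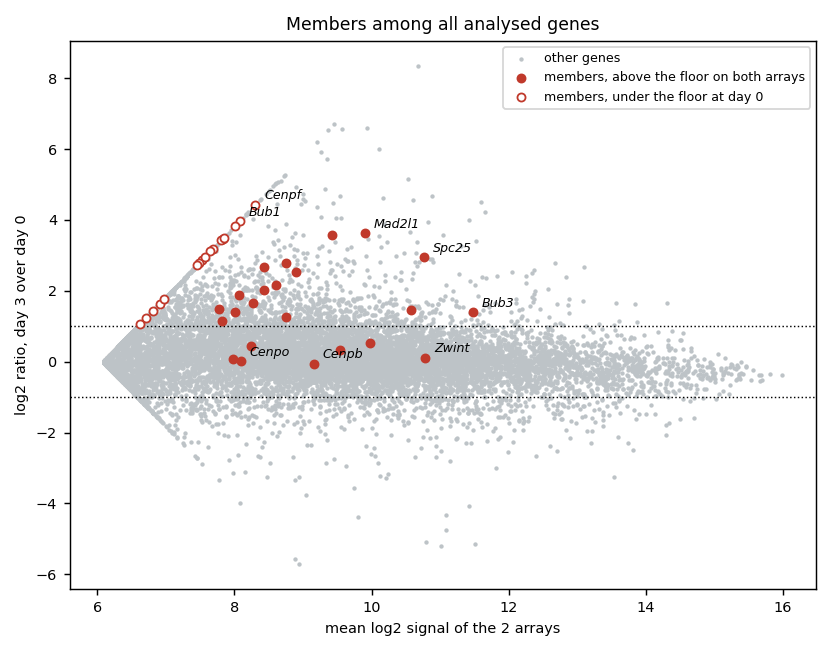
Log2 ratio of day 3 over day 0 against the mean log2 signal of the arrays for all 12634 analysed genes (grey) and for the 40 kinetochore and checkpoint genes (red, open where the day 0 signal was set to the floor). The dotted lines mark 2-fold; 33 of the 40 lie on or above the upper line and none below the lower one, and the open points lie on the slanted edge that the floor draws.

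Promoter sequence is shown for genes of both kinds, since most members were higher together. In mouse and human cells the G2 and mitosis genes often carry a cell cycle homology region near the start of transcription, with the core TTTGAA, which the MuvB complex binds, and CCAAT boxes, which the factor NF-Y binds. The RefSeq promoter table (GRCm38.p6) held 36 of the 40 genes, each with 250 bases before to 50 after the start. In this window TTTGAA was found on either strand in 15 of 36 genes (41.7%), against 20.2% of the 27025 genes of the table, which include predicted and non-coding genes. CCAAT was found in 23 of 36 (63.9%), against 41.1%, and both motifs in 12 of 36 (33.3%), against 7.97%. An E2F motif (TTCCCGC, or its variants TTGGCGC or, with other central letters, TTCGCGC) was found in 11 of 36 (30.6%), against 9.20%.

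Within 50 bases of the start on either side, a window chosen after the positions were seen, TTTGAA was found in 13 of 36 genes (36.1%), against 5.72% of all genes in the table. All 13 were among the 29 of these 36 genes that were at least 2-fold higher at day 3, and 0 among the 7 under 2-fold, of which Cenpl and Zw10 held it farther away. In the same window CCAAT was present in 16 of 36 genes (44.4%), against 15.6% of all genes in the table: 14 of the 29 and 2 of the 7. An E2F motif was present in 7 of 36 (19.4%), against 3.64%: 4 of the 29 and 3 of the 7. In the whole window the counts were 13 and 2 for TTTGAA, 20 and 3 for CCAAT, and 7 and 4 for E2F. These are matches of letters with no test, and no binding was measured. The 150 bases before the start are given for 5 genes at least 4-fold higher at day 3, chosen to show how the motifs lie, and for 2 genes with almost level signals, read 5′ to 3′ along the gene with every match to a searched motif in capitals (ATTGG is CCAAT and TTCAAA is TTTGAA on the other strand).
Kntc1 (chr5:123749576-123749725, plus strand): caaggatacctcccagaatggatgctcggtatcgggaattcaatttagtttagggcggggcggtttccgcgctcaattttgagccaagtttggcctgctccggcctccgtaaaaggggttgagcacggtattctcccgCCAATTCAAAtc
Cenpw (chr10:30200541-30200690, minus strand): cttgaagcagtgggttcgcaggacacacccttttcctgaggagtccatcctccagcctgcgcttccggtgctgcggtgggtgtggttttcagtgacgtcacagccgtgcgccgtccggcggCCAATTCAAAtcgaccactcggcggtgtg
Cenpf (chr1:189688087-189688236, minus strand): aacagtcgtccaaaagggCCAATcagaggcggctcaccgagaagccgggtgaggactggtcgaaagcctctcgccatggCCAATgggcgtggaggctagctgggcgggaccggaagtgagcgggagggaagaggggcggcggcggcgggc
Bub1 (chr2:127831860-127832009, minus strand): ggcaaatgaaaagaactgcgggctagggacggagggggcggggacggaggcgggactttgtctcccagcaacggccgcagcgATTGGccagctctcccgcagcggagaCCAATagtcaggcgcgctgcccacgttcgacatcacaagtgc
Spc25 (chr2:69206214-69206363, minus strand): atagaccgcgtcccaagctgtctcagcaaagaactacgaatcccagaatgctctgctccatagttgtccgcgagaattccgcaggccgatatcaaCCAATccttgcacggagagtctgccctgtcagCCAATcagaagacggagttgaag
Mis12 (chr11:71019461-71019610, plus strand): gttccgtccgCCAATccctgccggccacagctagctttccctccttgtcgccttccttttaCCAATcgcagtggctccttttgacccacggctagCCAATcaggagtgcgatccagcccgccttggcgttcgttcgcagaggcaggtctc
Cenpb (chr2:131180068-131180217, minus strand): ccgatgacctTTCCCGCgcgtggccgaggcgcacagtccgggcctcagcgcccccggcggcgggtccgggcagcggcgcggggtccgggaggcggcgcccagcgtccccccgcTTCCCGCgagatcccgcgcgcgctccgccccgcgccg
In Kntc1 and Cenpw the CCAAT box and the reversed TTTGAA overlap by 1 shared T, and the reversed TTTGAA begins 8 and 25 bases before the start of transcription. In Cenpf and Spc25 the CCAAT boxes lie before the start, while TTTGAA begins 3 and 25 bases after it, outside the stretch printed. Bub1 showed CCAAT boxes and no TTTGAA in this window. Mis12 held CCAAT boxes as well, and Cenpb held only the E2F motif TTCCCGC.

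Of the spindle checkpoint genes, 5 of 6 were at least 2-fold higher and 4 at least 8-fold (median log2 ratio 3.48, with 3 of the 6 as bounds). That median was 4.44 with a 25th percentile floor and 1.33 over the 5 genes left with a 75th percentile floor. It was 1.84 when each gene had its probe set with the smallest ratio, meaning the log2 ratio nearest 0. Bub1, the kinase that recruits other checkpoint proteins to KNL1, had a signal of 1069 at day 3 and 2.72 at day 0, at least 15.7-fold higher. Mad2l1, which encodes MAD2, the protein that locks onto CDC20 and so restrains the anaphase-promoting complex, had 3373 at day 3 and 272 at day 0, 12.4-fold higher and above the floor on both arrays. Ttk, the kinase MPS1 that starts checkpoint signalling, had 769.7 at day 3 and 18.4 at day 0, at least 11.3-fold higher. Bub1b, which encodes BUBR1, the pseudokinase of the mitotic checkpoint complex, had 754 at day 3 and 9.12 at day 0, at least 11.05-fold higher.

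The other checkpoint genes were closer to level. Bub3, the adaptor that carries BUB1 and BUBR1, was above the floor on both days, with 4603 at day 3 and 1754 at day 0, 2.62-fold higher. Mad1l1, which anchors MAD2 at the kinetochore, had 259 at day 3 and 244 at day 0, a log2 ratio of 0.09. So within 1 pathway the genes ranged from level (Mad1l1) to at least 15.7-fold (Bub1).

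Of the corona and RZZ genes, 4 of 6 were at least 8-fold higher and 2 were under 2-fold (median log2 ratio 3.31, with 4 of the 6 as bounds). That median was 4.96 with a 25th percentile floor, 0.67 with a 75th percentile floor and 0.42 with the probe sets of the smallest ratio. Cenpf, a large coiled-coil protein of the nuclear matrix and the outer kinetochore, had 1468 at day 3 and 14.7 at day 0, at least 21.5-fold higher, a bound set by the floor. Cenpe, the kinesin that carries chromosomes toward the spindle equator, had 619 at day 3 and 5.92 at day 0, at least 9.06-fold higher.

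The RZZ complex, which brings dynein and the MAD1 and MAD2 proteins to unattached kinetochores, was uneven. Zwilch had 978 at day 3 and 31.8 at day 0, at least 14.3-fold higher, and Kntc1, which encodes ROD, had 737 at day 3 and 14.05 at day 0, at least 10.8-fold higher. The remaining subunit, Zw10, which also acts in membrane traffic between the endoplasmic reticulum and the Golgi, had 1207 at day 3 and 842 at day 0, 1.43-fold higher. Zwint, the KNL1 partner that helps recruit RZZ, had 1832 at day 3 and 1688 at day 0, 1.09-fold higher, and its 6 probe sets above the floor had log2 ratios of −0.60 to 0.89.

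All 4 genes of the NDC80 complex, the rod that binds microtubules, were at least 2-fold higher (median log2 ratio 2.18, with 2 of the 4 as bounds). That median was 3.01 with a 25th percentile floor and 1.47 over the 3 genes left with a 75th percentile floor. Spc25 had 4824 at day 3 and 625 at day 0, 7.72-fold higher. Nuf2 had 449 at day 3 and 13.9 at day 0, at least 6.58-fold higher. Ndc80 itself had 212 at day 3 and 25.2 at day 0, at least 3.10-fold higher, and Spc24 had 2546 at day 3 and 919 at day 0, 2.77-fold higher. Spc24 and Spc25 pair with each other at the inner end of the rod, and Ndc80 and Nuf2 pair at the microtubule end. The chosen probe sets of Spc24 and Spc25 were above the floor on both arrays. Those of Ndc80 and Nuf2 were under it at day 0, and levels are not compared between these probe sets.

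The MIS12 complex, which joins the NDC80 rod to the inner kinetochore, is described gene by gene, since its median depends on Nsl1 (1.43 on the log2 scale with the chosen Nsl1 probe set and 0.32 with the other, computed after the values were seen). Dsn1 had 367 at day 3 and 130.3 at day 0, 2.82-fold higher, and Mis12 had 828 at day 3 and 662 at day 0, 1.25-fold higher. The probe sets of Nsl1 went opposite ways: the chosen one had 183 at day 3 and 28.3 at day 0, at least 2.69-fold higher, and the other had 42.8 at day 3 and 147 at day 0, at least 2.16-fold lower. Nsl1 is counted as higher through the first of them, and its direction is not settled.

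The SKA genes, whose products help the kinetochore follow shortening microtubules, were all at least 2-fold higher (median log2 ratio 1.22). That median was 2.85 with a 25th percentile floor, while a 75th percentile floor left only Ska2, at 0.27. Ska2 had 511 at day 3 and 139.7 at day 0, 3.66-fold higher. Ska1, the microtubule-binding subunit, had 159.5 at day 3 and 9.001 at day 0, at least 2.34-fold higher, and Ska3 had 142 at day 3 and 4.46 at day 0, at least 2.09-fold higher. Ska3 fell under 2-fold with median centring, quantile normalisation and loess (log2 ratios of 0.98, 0.96 and 0.895), and the other probe set of Ska1 had 100.004 at day 3 and 7.23 at day 0, at least 1.46-fold higher.

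CENP-A and its loading factors were all at least 2-fold higher (median log2 ratio 2.79 over 3 genes). That median was 3.56 with a 25th percentile floor and 1.95 over the 2 genes left with a 75th percentile floor. Cenpa, the centromeric histone, had 2378 at day 3 and 198.5 at day 0, 11.98-fold higher on a probe set whose name marks it as matching several transcripts. The other probe set above the floor had 137 at day 3 and 38.2 at day 0, at least 2.01-fold higher. Mis18a and Oip5, which encode both kinds of MIS18 subunit that mark centromeres for new CENP-A, were 6.94-fold and at least 3.41-fold higher. Their signals were 1130.4 at day 3 and 163 at day 0 for Mis18a, and 233 at day 3 and 3.66 at day 0 for Oip5. Cenpb, whose product binds a repeat motif in centromeric satellite DNA, had 559.9 at day 3 and 579.98 at day 0, a log2 ratio of −0.05, and was the only member with a ratio under 0, though its ratio was 0.26 with scaling to the hybridisation spikes, and those of Cenpo and Mad1l1 were −0.31 and −0.25 after loess.

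The constitutive centromere-associated network is the inner layer that stays on centromeres through the cell cycle. Of its 12 genes, 10 were at least 2-fold higher and 2 under 2-fold (median log2 ratio 2.09, with 3 of the 12 as bounds). That median was 2.09 with a 25th percentile floor and 0.65 over the 9 genes left with a 75th percentile floor. With the latter floor 2 of the 9 were at least 2-fold higher, beside 7.47% of all genes. All 4 genes of the network's H, I, K and M module were at least 4-fold higher on their brightest probe sets. Cenpi had 591 at day 3 and 5.64 at day 0, at least 8.66-fold higher, and Cenph had 497 at day 3 and 13.9 at day 0, at least 7.27-fold higher. Cenpk had 874 at day 3 and 138 at day 0, 6.35-fold higher, and Cenpm had 1141 at day 3 and 198 at day 0, 5.76-fold higher. The values for Cenpi and Cenph are bounds, while these probe sets of Cenpk and Cenpm were above the floor on both arrays. Another probe set of Cenpk had 115.8 at day 3 and 29.4 at day 0, at least 1.70-fold higher.

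Cenpt and Cenpw, whose products pair through histone folds and give NDC80 a second way onto the centromere, had close ratios. Cenpt had 824 at day 3 and 184 at day 0, 4.47-fold higher, and Cenpw had 694 at day 3 and 170.2 at day 0, 4.08-fold higher. Cenpc1, which encodes CENP-C, the link from the CENP-A nucleosome to MIS12, had 336 at day 3 and 152 at day 0, 2.20-fold higher, and was under 2-fold after quantile normalisation and loess (log2 ratios of 0.88 and 0.78).

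The other modules of the network were uneven. In the module of O, P and Q, Cenpp had 469 at day 3 and 31.2 at day 0, at least 6.87-fold higher. Cenpq had 547 at day 3 and 173 at day 0, 3.16-fold higher, whereas Cenpo had 274 at day 3 and 271 at day 0, 1.01-fold. Another probe set of Cenpo had 130.3 at day 3 and 66.7 at day 0, at least 1.91-fold higher. In the CENP-L and CENP-N pair, which reads the CENP-A nucleosome, Cenpn had 665 at day 3 and 278 at day 0, 2.40-fold higher, and Cenpl had 354 at day 3 and 259 at day 0, 1.37-fold higher.

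The remaining members act on the spindle and the centriole rather than in the kinetochore core. Spag5, which encodes astrin, a spindle protein that stabilises attachments, had 534 at day 3 and 56.7 at day 0, at least 7.83-fold higher. Cenpj, which despite its name is known chiefly for building centrioles, had 417 at day 3 and 157 at day 0, 2.66-fold higher.

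**Figure D3:**
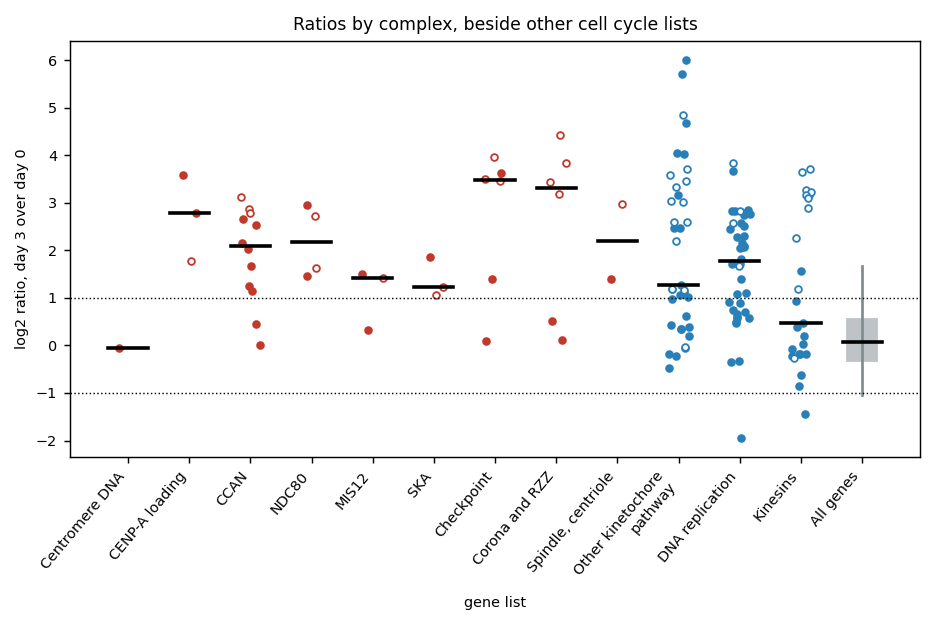
Log2 ratio of day 3 over day 0 for each gene by complex (red) and for comparison lists (blue), open where 1 array lay under the floor; black bars are medians, the grey box and whisker span the quartiles and the 5th to 95th percentile of all analysed genes. Each of the checkpoint, corona, MIS12 and network groups holds genes between the 2-fold lines, and the MIS12 median of 1.43 is the chosen Nsl1 probe set, with 0.32 for the other. Open points are bounds, so the order of groups that hold them depends on the floor.

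Of the 83 probe sets of these genes, 21 were under the floor on both arrays, 41 were at least 2-fold higher at day 3, 20 were under 2-fold and 1 was at least 2-fold lower. Over all 21676 probe sets with 1 symbol above the floor, 11.2% were at least 2-fold higher and 6.07% at least 2-fold lower. More than 1 probe set above the floor was present for 17 genes, and for 8 of them all were at least 2-fold higher: Cenpa, Mis18a, Cenpn, Cenpp, Cenpw, Ska2, Bub1b and Spag5. For Cenpf, Cenpe and Ttk the dimmer probe set was near the floor at day 3 (85.1, 80.3 and 119) and gave bounds of only 1.25-fold, 1.18-fold and 1.74-fold. For Bub3 the dimmer probe sets had 566 at day 3 and 360.4 at day 0, 1.57-fold higher, and 83.1 at day 3 and 47.4 at day 0, at least 1.22-fold higher. Across 4380 genes of the series the log2 ratio varied with an SD of 0.44 between probe sets of 1 gene, a spread that covers probes and not animals.

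**Figure D4:**
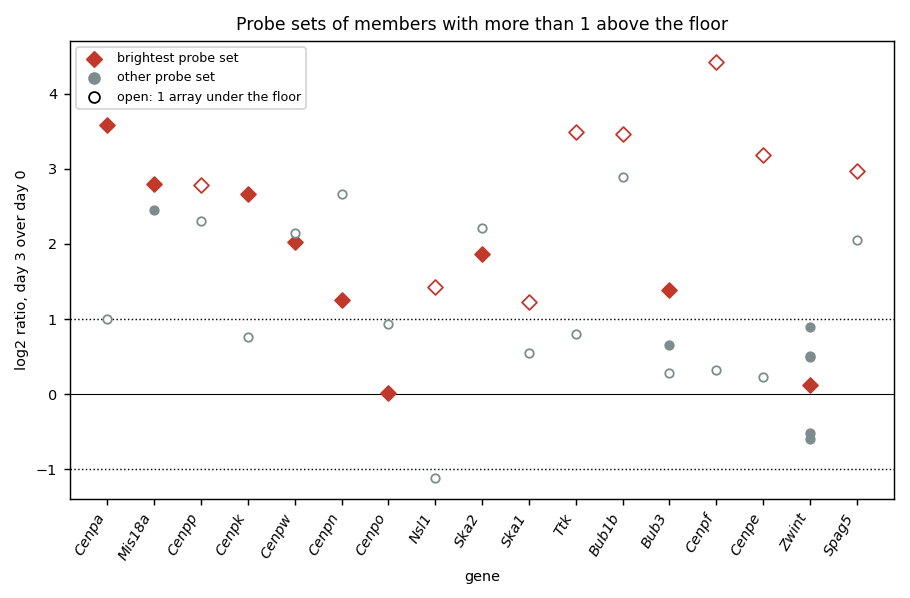
Log2 ratio of day 3 over day 0 for every probe set above the floor of the 17 genes with more than 1, with the brightest as a diamond and open symbols where 1 array lay under the floor, so that the ratio is a bound. Nsl1 has probe sets past 2-fold in both directions, and the 6 of Zwint lie between −0.60 and 0.89.

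Among 37 other genes of the kinetochore pathway that could be analysed, out of a list of 50 symbols in which some genes appear under an old and a new name, 25 were at least 2-fold higher and the other 12 stayed under 2-fold (median log2 ratio 1.27). Highest were Cdc20, the target of the checkpoint (8833 at day 3 and 137 at day 0, 64.6-fold), and Birc5, Incenp and Cdca8, which with Aurkb form the chromosomal passenger complex that corrects faulty attachments (52.8-fold, 25.8-fold and 16.6-fold). Plk1, a mitotic kinase, was at least 28.7-fold higher. Lowest were Clip1, a protein of microtubule ends, with 1135 at day 3 and 1577 at day 0, 1.39-fold lower, and Ndel1, a dynein regulator, 1.17-fold lower. Cenpv and Cenpx were 1.13-fold and 1.04-fold lower, and Usp44 was under the floor at day 3. Spike scaling adds 0.31 to the log2 ratio of genes above the floor, which turns Ndel1, Cenpv and Cenpx higher at day 3. Cenpu, Itgb3bp and Cenps were 5.53-fold, 2.41-fold and at least 6.097-fold higher. They were named after their values were seen because they belong to modules described above.

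For comparison, a list of 40 genes of DNA replication held 27 past 2-fold upward and 1 downward (median log2 ratio 1.78). Of 25 kinesin genes, mitotic and transport motors together, 11 were higher and 1 was lower (median 0.46). Differences between these lists and the kinetochore genes were not tested.

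In whole liver a higher signal can come from more cells of a type or from more RNA per cell, which cannot be told apart here. Hepatocyte markers were present on both arrays, with 0 of 11 past 2-fold, log2 ratios from −0.92 to just under 0 and summed signals of 348500.4 at day 3 and 453319.6 at day 0. Some markers of several other cell types were higher at day 3, as most of the kinetochore genes were. Summed signals add probe sets that are not on a common scale, so the brightest weigh most. Of the Kupffer cell and macrophage markers 5 of 8 were at least 2-fold higher (summed signal 20023 at day 3 and 7618 at day 0). Of the stellate cell markers 5 of 8 were (29559.7 at day 3 and 10603 at day 0), with Col1a1 and Des under the floor at day 0. Of the cholangiocyte markers 3 of 5 were (1112 at day 3 and 276 at day 0), with Epcam, Krt7 and Cftr under the floor at day 0. Of the neutrophil markers 2 of 5 were (1461 at day 3 and 479 at day 0). These were S100a8 and S100a9, with 585 and 550 at day 3, and S100a8 was under the floor at day 0. Elane and Csf3r had log2 ratios of 0.34 and 0.28, and Ngp had −0.40 and was under the floor at day 3. None of 8 endothelial markers passed 2-fold (7217 at day 3 and 9102 at day 0). Of the lymphocyte markers 2 of 7 with a probe set were above the floor on either array and neither passed 2-fold (158 at day 3 and 173 at day 0), and 2 of 3 erythroid markers were at least 2-fold lower (2938 at day 3 and 9334 at day 0). The part of these cells in the kinetochore signal was not tested.

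The arrays also differed in the balance of 3′ to 5′ signal. Poly-A spikes are bacterial transcripts put into the RNA ahead of labelling. All 8 of their probe set pairs had a higher 3′ to 5′ ratio at day 3, by a factor of 1.32 to 2.90. These pairs read only the transcripts dap, lys, phe and thr, each more than once, so they are not 8 separate spikes. For Gapdh the 3′ to 5′ ratio was 2.69 at day 3 and 1.41 at day 0. The median log2 ratio was −1.20 for the 5′ spike probe sets and −0.12 for the 3′ ones. As deposited, 39 of the 40 kinetochore and checkpoint genes had a ratio above 0, beside 55.1% of all analysed genes. Where each member's probe set lies along its transcript was not analysed, and what this balance adds to the ratios was not tested.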

How the data were processed

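The authors deposited 1 linear intensity per probe set and array, computed with GCOS and MAS5 per the submitters' processing notes, from biotin-labelled cRNA of 5 µg total RNA per the labels' protocols. No version or scaling target is named there. Both arrays had a mean of 500.004 after trimming 2% at each end. MAS5 subtracts mismatch probes, so low signals are noisy.

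The array annotation named the probe sets (34945 with 1 symbol, 932 with several, not used, and 9160 with no entry); the Entrez IDs of all members matched RefSeq (GRCm38.p6). Signals under 68.3 were set to it, log2 was taken, and probe sets under it on both arrays were dropped. The brightest probe set (by mean log2 over both arrays) stood for a gene, which was called at 2-fold. With 1 array a day no p-value was computed. All members are named; of the other pathway genes the 5 highest and 5 lowest. The members and lists were chosen with earlier results of these data known. Steps were tested on simulated data. Changes were put only into genes with day 0 signals well above the floor, so recovery of floored ratios was not covered. Python 3.11.15, pandas 2.3.3 and statsmodels 0.14.6 were used. The alternatives were 4 scalings, 4 treatments of the floor, 3 choices of probe set and 2 thresholds.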

Additional observations from a re-analysis of the deposited data

How the results depend on the processing

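Of 33 genes at least 2-fold higher at day 3, 32 kept a ratio above 0 under all of the 11 alternative settings in which they could be computed, and 12 stayed at least 2-fold higher in all of them; the 7 genes under 2-fold stayed so in all. Some settings remove genes: 11 of 29 were at least 2-fold higher with a 75th percentile floor, beside 7.47% of all genes. The number was 16 of 23, beside 11.8%, when both arrays had to exceed the floor. Without probe sets marked as shared it was 27 of 32, beside 12.5%. At a 4-fold threshold it was 20 of 40, beside 3.27%. It lay between 26 and 33 in the settings that kept all 40 genes at 2-fold, 26 when each gene had its probe set with the smallest ratio. Nsl1 was at least 2-fold lower (1 of 40) with a 25th percentile floor, at a log2 ratio of −1.78, beside 11.2% of all genes. Its ratio was −1.47 with no floor and 16 added (1 of 40), beside 8.07% of all genes at least 2-fold lower. With the probe set of the smallest ratio it was −1.11 (1 of 40), beside 4.22%. These settings take the other probe set of Nsl1. The median log2 ratio of the members was 2.73 with a 25th percentile floor, 0.80 with a 75th percentile floor, 2.50 with no floor and 16 added, 1.47 when both arrays had to exceed the floor and 1.48 with the smallest ratio. Scaling to the hybridisation spikes moved the median of all genes to 0.38 and that of the members to 2.26. Probe sets marked as shared between transcripts or genes are those with names ending in _a_at, _s_at or _x_at. Without them log2 ratios were 1.004 for Cenpa, 0.65 for Bub3, 2.05 for Spag5 and 0.93 for Cenpo. Mis18a was among the genes with no probe set left. No paired analysis was possible because each day has 1 array. Low signals limit the 17 genes under the floor at day 0, whose folds are bounds.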
